A study of Mus musculus with 6 samples.

Results

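Filaggrin (Flg) and the other fused S100 genes were followed in epidermis of mouse embryos at E16 that lacked Sox4, Sox11 or both. The group was defined by name as Flg, Flg2, Hrnr, Rptn, Tchh, Tchhl1 and Crnn. Each of the 7 genes had 1 probe, so the group held 7 of 21371 named genes and 7 of 55681 probes on the array. Probes were assigned through the transcript accession printed with them. The filaggrin probe (A_52_P127877) carries an accession that the name table used here does not list, and it was taken as Flg because the study uses it so. Each of the 6 two-colour arrays set RNA of a knockout against RNA of wild-type littermates. There were 2 arrays for Sox4 cKO, 2 for Sox11 cKO and 2 for the knockout of both genes (dcKO). The dyes were swapped between the arrays of a genotype, with the knockout in Cy5 on replicate 1 and in Cy3 on replicate 2. The strain given for every sample is 129SvEx:C57BL/6. According to the study's methods, floxed alleles (Sox4 fl/fl, Sox11 fl/fl) were combined with Krt14-Cre from an FVB/N line. The Krt14 promoter is known to be active in basal keratinocytes, so cells that do not descend from these would be expected to keep both genes. The floxed line came from mice that also carried Sox12 -/-, and the labels name no Sox12 genotype. The labels do not say whether wild-type RNA was shared between arrays or whether embryos were pooled.

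Fused S100 proteins join the calcium-binding domain of an S100 protein to a long stretch of repeats. Keratinocytes of the granular layer store profilaggrin in keratohyalin granules, and on cornification it is cut into filaggrin units that bundle keratin filaments and are later broken down to amino acids that hold water in the skin surface. Flg2 (filaggrin 2) and Hrnr (hornerin) are related proteins of the same layers. Rptn (repetin) is a precursor of the cornified envelope, Tchh (trichohyalin) is crosslinked in the inner root sheath of the hair follicle, Tchhl1 is its close relative, and Crnn (cornulin) is found in squamous epithelia such as oesophagus. In mouse skin filaggrin appears late in embryonic development, as the barrier forms.

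The genes lie side by side on chromosome 3, on the plus strand, in the order Crnn, Flg2, Flg, Hrnr, Rptn, Tchh and Tchhl1. RefSeq promoter windows (GRCm38.p6, 250 bases before to 50 after the start) were matched for 7 of 7 genes. The 120 bases before the start are shown for the 3 genes that passed the test in dcKO (Flg, Flg2, Rptn) and for Crnn, which also holds both motifs marked here and stood at -0.037 in dcKO. Flg2 holds the first of them only. Capitals mark TGANTCA, a loosened form of the AP-1 site in which N may be any base, and TATAAA. In the windows shown N is A or T, and binding of AP-1 factors was not tested.
Flg, chr3:93273426-93273545: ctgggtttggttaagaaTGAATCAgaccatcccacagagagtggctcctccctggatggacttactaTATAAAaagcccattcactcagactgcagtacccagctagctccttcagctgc
Flg2, chr3:93197153-93197272: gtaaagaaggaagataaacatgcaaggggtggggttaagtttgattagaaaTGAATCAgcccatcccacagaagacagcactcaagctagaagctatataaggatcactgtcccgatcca
Rptn, chr3:93393579-93393698: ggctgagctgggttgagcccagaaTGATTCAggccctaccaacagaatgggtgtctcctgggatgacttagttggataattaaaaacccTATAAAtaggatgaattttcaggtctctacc
Crnn, chr3:93144669-93144788: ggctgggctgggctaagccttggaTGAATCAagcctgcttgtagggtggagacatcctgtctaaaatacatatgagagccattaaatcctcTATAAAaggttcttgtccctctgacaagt

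TGANTCA, which reads the same on both strands, was found in 5 of the 7 windows and in 7.81% of all 32851 RefSeq promoter windows of the same length. Its first base lay 103 bases before the start in Flg, 69 in Flg2, 96 in Rptn, 96 in Crnn and 87 in Tchhl1. TATAAA, searched on the plus strand of the gene only, was found in Flg, Hrnr, Rptn and Crnn, against 8.32% of all windows. Forms of the SOX motif, ACAAAG and AACAATG on either strand, were in 0 of 7 windows, against 18.7% and 3.78% of all windows. Bases outside the windows were not searched, so the count says nothing of sites elsewhere. The study's ChIP-seq reported binding of SOX11 and SOX4 at several places in the chromosome 3 gene cluster that holds Flg. It used FLAG-tagged proteins induced in cultured keratinocytes that lacked both genes. In epidermal cells taken fresh from SOX11-induced pups, the study's ChIP-qPCR did not detect enrichment at a small SOX11 peak in Flg2. The study names harsher sonication as a possible reason. TTGCNNAA, a C/EBP-like site, was in Flg, Flg2 and Hrnr (10.8% of all windows), and AGATAA, as bound by factors of the GATA family, was in Flg2 and Tchh (11.2%). These 6 motifs were the ones searched, and TGANTCA was held both by genes that rose in dcKO and by Crnn.

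Per channel, 38.9% to 43.6% of the spots passed the scanner software's test for standing well above background, and no spot was saturated. Of the 2 probes for Sox4, A_55_P2131899 dropped to background in Sox4 cKO, at least 3.05-fold below wild type (adjusted p = 0.0284), and in dcKO, at least 2.997-fold below it (adjusted p = 0.00223). The other, A_55_P2121613, stayed well above background in both knockouts and did not pass in either. It was 1.34-fold below wild type in Sox4 cKO (adjusted p = 0.802) and 1.77-fold below it in dcKO (adjusted p = 0.0768). Both Sox11 probes were at or near background, so the loss of Sox11 could not be checked from these arrays. The study reports that RT-qPCR, run on these RNAs before the arrays, verified the loss of Sox4 and Sox11 in the respective knockouts. The 2 wild-type channels beside Sox11 cKO stood apart, with the lowest Flg and Hrnr and the highest mean periderm keratin levels of the 6. Values without those arrays are given where they change a call. Ratios are given as log2(knockout/wild type), and a probe was called at an adjusted p under 0.05 and a log2 change beyond 1.5 in size, over all 55681 probes (limma). Levels are normalized log2 intensities of 1 channel and are compared only within a probe.

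Flg rose in dcKO epidermis by 4.66 on the log2 scale, or 25.3-fold (SE 0.13, 95% CI 4.37 to 4.96, n = 2 arrays, adjusted p = 2.69e-06). Only 1 of the 55681 probes had a smaller p. According to the study, these RNAs had first been checked by RT-qPCR, among other things for a rise of Flg in dcKO. The direction of the Flg change in dcKO was thus known before hybridisation, and its p is no independent evidence of a rise. The log2 ratio was 4.50 on dcKO 1 and 4.83 on dcKO 2, and before normalization the spot read 9761 in dcKO against 304 in wild type on the one array and 2712 against 177 on the other. In Sox4 cKO the log2 ratios were 0.86 and 1.27, a fitted change of 1.06 or 2.09-fold (SE 0.13) that did not pass the test over all probes (adjusted p = 0.136). In Sox11 cKO the ratios were -0.27 and 0.31, with the probe not well above background in either channel of either array, so no fold can be given. Flg was therefore higher in the knockout on both arrays of Sox4 cKO and dcKO and had no measured level on the Sox11 cKO arrays.

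The level of Flg in wild type itself was far from constant. It was 10.57 and 6.80 beside Sox4 cKO, 5.27 and 4.63 beside Sox11 cKO (both not well above background) and 8.44 and 6.83 beside dcKO, a span of 5.94 on the log2 scale or 61.2-fold. Both dcKO levels, 12.94 and 11.66, lay above all 6 wild-type levels. The Sox4 cKO levels were 11.43 and 8.07, of which the first exceeded every wild-type level and lay just under the lower dcKO level. Over the 16 alternative settings the dcKO change ranged from 4.44 to 4.86, and without both Sox11 cKO arrays Flg and Flg2 were both called in dcKO, with adjusted p of 2.79e-05 and 0.0156.

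**Figure D1:**
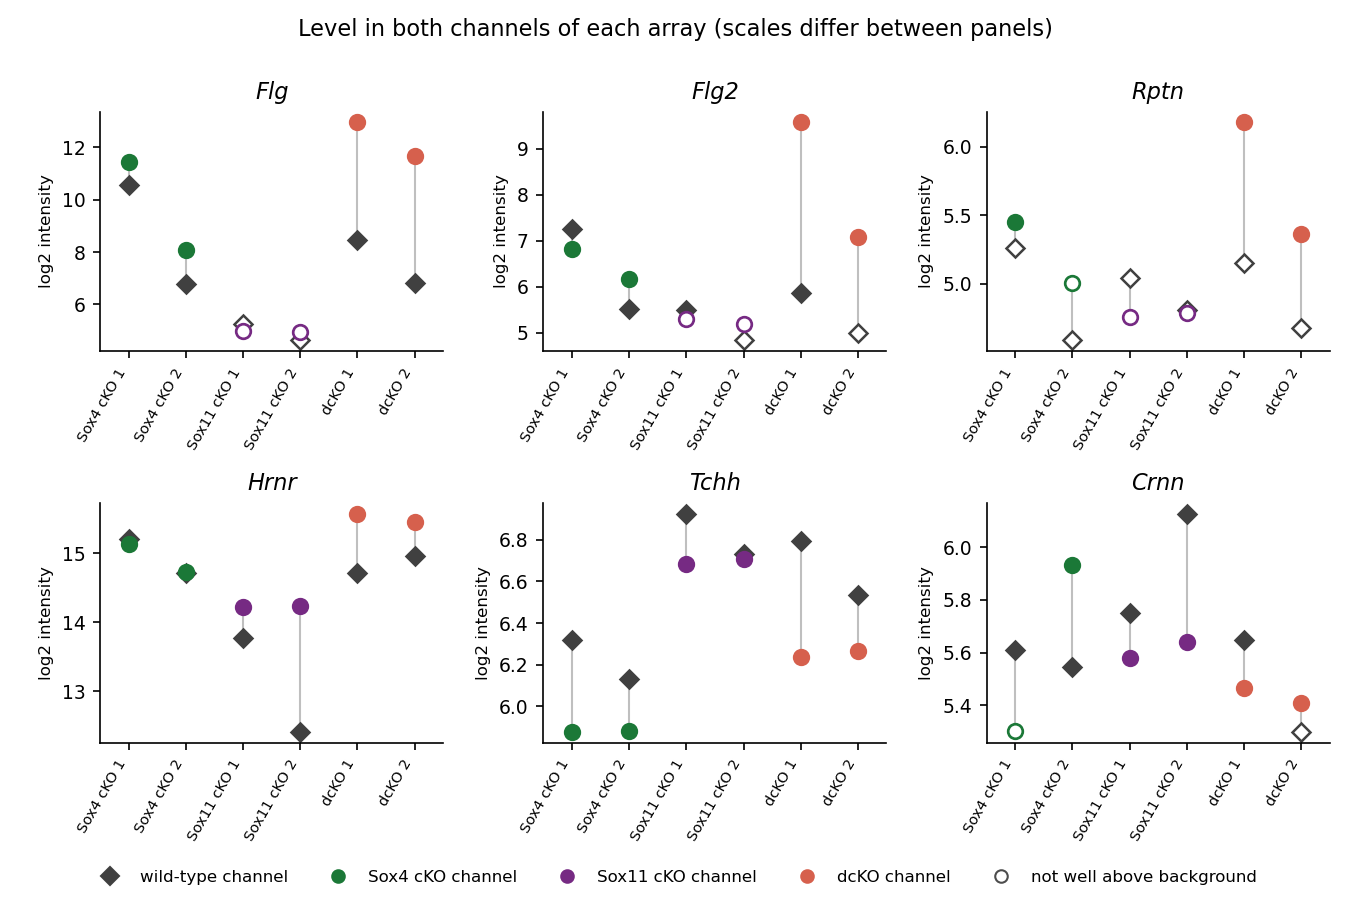
Normalized log2 intensity of both channels on each of the 6 arrays for 6 fused S100 genes, with wild type as diamonds, knockouts as circles, a grey line joining the 2 channels of an array and open symbols where the channel was not well above background. Flg in dcKO reached 12.94 and 11.66, while its wild-type level ran from 4.63 to 10.57 and its Sox11 cKO arrays stayed at background; the scales differ between panels.

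Flg2 rose in dcKO by 2.90 on the log2 scale, or 7.44-fold (SE 0.37, 95% CI 2.06 to 3.73, n = 2 arrays, adjusted p = 0.00998). Its log2 ratios were 3.71 on dcKO 1 and 2.08 on dcKO 2, from raw readings of 904 against 54 and of 120 against 61. The levels were 9.58 and 7.08 in dcKO against 5.87 and 4.997 in the wild type beside it, and the wild type cleared background on dcKO 1 only. The lower dcKO level fell below the highest wild-type level, 7.26 beside Sox4 cKO 1, so the groups overlapped across arrays. In Sox4 cKO the ratios were -0.44 and 0.64, and in Sox11 cKO, where the knockout was not well above background, -0.21 and 0.35. The size of the dcKO change depended on the array: it was 1.67 without dcKO 1 and 4.12 without dcKO 2, and it was called in both cases.

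Flg and Flg2 were the 2 of the 7 fused S100 probes that were called in dcKO, both upward, against 115 of 55681 probes called in either direction (0.207%) and 96 called higher (0.172%). With the adjusted p alone 3 of 7 passed, Rptn being the third, against 0.833% of all probes, and with the unadjusted p under 0.05 it was 5 of 7, against 9.89%. The median log2 change of the 7 genes was 0.68, with 4 higher and 3 lower, beside a median of 0.00 over all probes. The calls of Flg and Flg2 were lost under 1 of the 16 alternative settings, the log ratios of the Feature Extraction software, with which 0 probes of the whole array were called in dcKO; Flg then stood at 4.86 (adjusted p = 0.23) and Flg2 at 4.33 (adjusted p = 0.343).

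**Figure D2:**
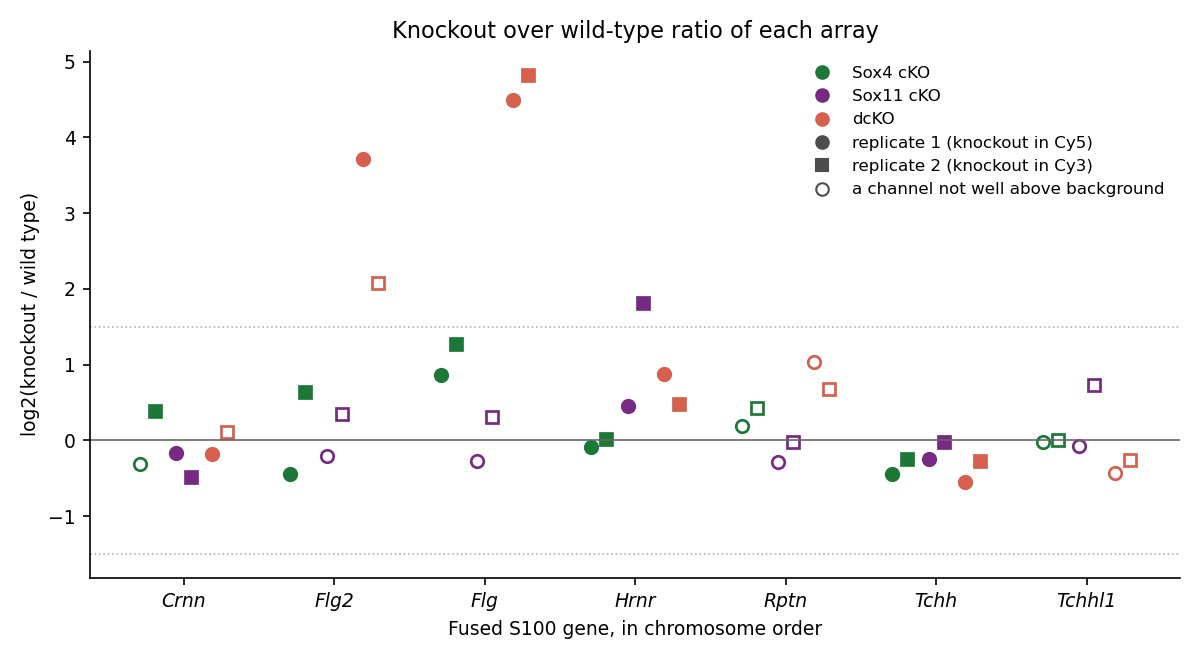
Log2(knockout/wild type) of each array for the 7 fused S100 genes in chromosome order, with circles for replicate 1, squares for replicate 2, open symbols where a channel was not well above background and dotted lines at the fold threshold of 1.5. The dcKO ratios of Flg, 4.50 and 4.83, and of Flg2, 3.71 and 2.08, were the ones beyond the threshold on both arrays.

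Rptn was dim in wild type on all 6 arrays and well above background in both dcKO channels. Its log2 ratios were 1.03 and 0.68 in dcKO. They were 0.19 and 0.42 in Sox4 cKO, and those of Sox11 cKO were -0.28 and -0.02, at background in both channels. The dcKO level was at least 1.59-fold higher than wild type (adjusted p = 0.0439), under the fold needed for a call. The adjusted p was under 0.05 in 9 of the 16 alternatives. It was 0.0705 with no replicate block, 0.339 with the Feature Extraction log ratio, 0.664 without dcKO 1, 0.0518 without dcKO 2 and 0.0554 without either or both of the Sox11 cKO arrays.

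Hrnr gave bright signals on every array, and its ratios were modest in Sox4 cKO and dcKO. In dcKO the log2 ratios were 0.87 and 0.48, a fitted change of 0.68 (SE 0.25, 95% CI 0.10 to 1.25, adjusted p = 0.417) that did not pass the test. It was 0.12 without dcKO 1 and 1.24 without dcKO 2. Both dcKO levels, 15.57 and 15.46, were nevertheless above the highest of the 6 wild-type levels, 15.21. In Sox4 cKO the ratios were -0.08 and 0.01. In Sox11 cKO they were 0.45 and 1.82, with a fitted change of 1.13 (SE 0.25, adjusted p = 0.682). The Sox11 cKO levels were nearly equal, 14.22 and 14.23, whereas the wild-type levels beside them were 13.78 and 12.41, the 2 lowest of the 6. Leaving out an array moved the Sox11 cKO change from 1.13 to as low as 0.38 (without replicate 2) or as high as 1.89 (without replicate 1).

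Tchh, the hair sheath member, was the 1 gene of the group that pointed downward throughout. It was well above background in all 12 channels and lower in the knockout than in wild type on 6 of 6 arrays. The log2 ratios were -0.56 and -0.27 in dcKO, -0.44 and -0.25 in Sox4 cKO. Those of Sox11 cKO were -0.24 and -0.03. The fitted changes of -0.41 in dcKO (SE 0.13, adjusted p = 0.297), -0.35 in Sox4 cKO (adjusted p = 0.787) and -0.13 in Sox11 cKO (adjusted p = 0.871) did not pass the test. Both Sox4 cKO levels, 5.88 and 5.88, lay below all 6 wild-type levels, which ran from 6.13 to 6.92, while the dcKO and Sox11 cKO levels overlapped them.

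Crnn and Tchhl1 completed the group. Crnn was well above background in 10 of 12 channels, and its log2 ratios were -0.18 and 0.11 in dcKO, -0.31 and 0.39 in Sox4 cKO. Those of Sox11 cKO were -0.17 and -0.49. The dcKO change of -0.037 had a 95% CI of -0.44 to 0.36. Tchhl1 was not well above background in any of the 12 channels, and no fold is given for it.

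In the knockouts of 1 gene, 0 of the 7 probes were called. For Sox4 cKO the count over the array was 3 of 55681 (0.00539%), and for Sox11 cKO it was 0 of 55681 (0%). At an unadjusted p under 0.05, 2 of the 7 fused S100 probes passed in Sox4 cKO (Flg, higher, and Tchh, lower) against 6.18% of all probes, and 1 in Sox11 cKO (Hrnr, higher) against 7.05%. The median log2 change of the group was 0.04 in Sox4 cKO and 0.02 in Sox11 cKO. Flg in Sox4 cKO had the seventh smallest p on the array. Its adjusted p ranged from 0.00298 to 0.937 over the 16 alternatives and was under 0.05 in 5 of them, and its log2 change stayed between 0.96 and 1.17, below the fold needed for a call.

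Whether the loss of both factors differed from the loss of 1 was tested directly. The Flg change in dcKO exceeded that in Sox4 cKO by 3.60 on the log2 scale (SE 0.18, 95% CI 3.18 to 4.01, adjusted p = 0.000319), and Flg was the 1 of 7 genes called in this difference, in which 73 of all probes (0.131%) were called. The fits of dcKO minus Sox11 cKO and of dcKO minus the sum of both also called the Flg probe, among 78 (0.14%) and 49 (0.088%) of all probes. Both subtract Sox11 cKO ratios that came from channels at background, so for Flg they measure no difference and no value is given. For Flg2 the difference from Sox4 cKO was 2.79 (adjusted p = 0.168), and those from Sox11 cKO, where the knockout was not well above background, and from the sum were 2.82 (adjusted p = 0.142) and 2.72 (adjusted p = 0.544). None of them was called. The Flg2 difference from Sox4 cKO passed the test with an intensity trend in the prior (adjusted p = 0.0152) and without dcKO 2 (4.02, adjusted p = 3.43e-05). Its difference from Sox11 cKO was called under 5 of the alternatives and that from the sum under 1.

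**Figure D3:**
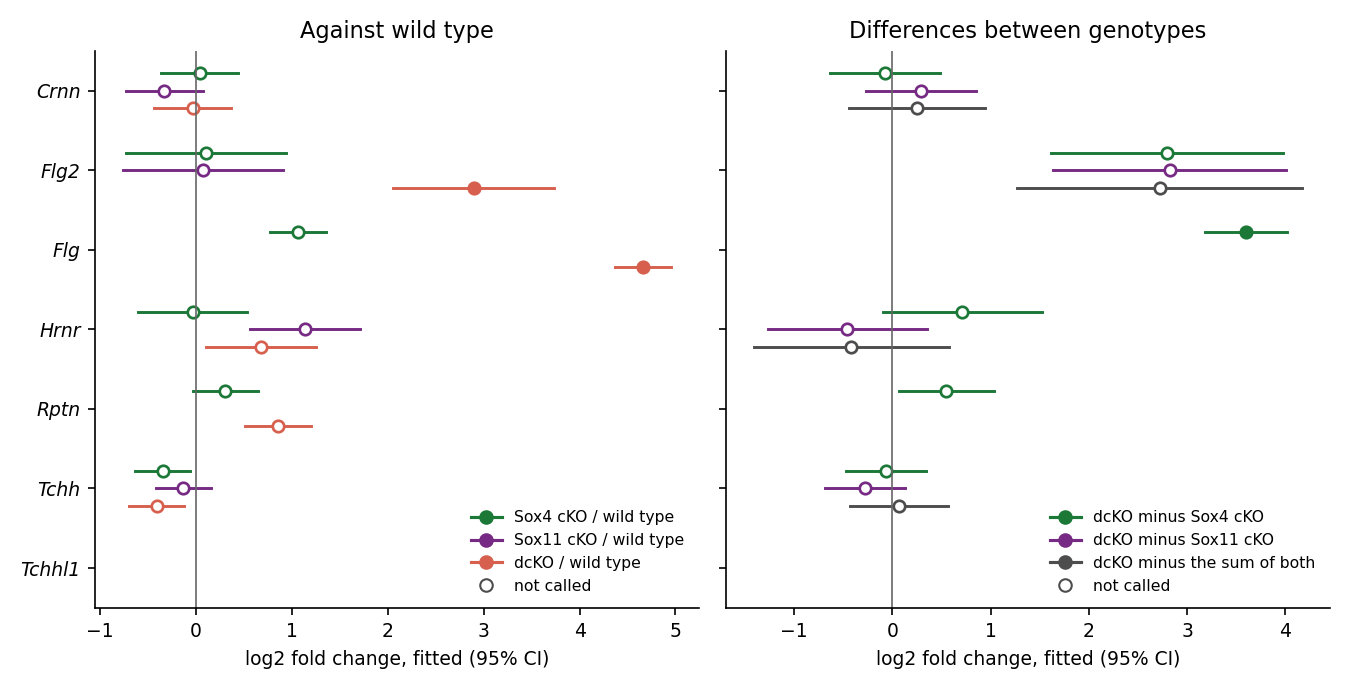
Fitted log2 fold changes with 95% CI for the 7 genes, against wild type (left) and as differences between genotypes (right), with filled symbols for called probes and no symbol where a genotype had both groups not well above background. Flg was called in dcKO (4.66) and in dcKO minus Sox4 cKO (3.60), Flg2 in dcKO (2.90).

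The wild type beside Sox11 cKO differed from the other wild-type channels in periderm genes as well as in Flg and Hrnr. Many genes of the lists described below also had their lowest wild-type levels there. They include Hal, Klk7, Klk5, Blmh, Prss8, Ctsl, Casp14, Kprp, Cdsn, Ivl, Krt1, Krt72, Maf and Prdm1. Evpl, Ahr and Krt71, of the same lists, did not share this. Periderm, the outermost embryonic layer that is shed as the skin matures, was represented by Krt4, Krt6a, Krt8, Krt17, Krt18 and Krt19. Their mean log2 level in wild type was 10.87 and 10.66 beside Sox11 cKO and between 9.32 and 9.74 on the other 4 arrays. Krt17 did not share this, at 12.12 and 11.60 beside Sox11 cKO and 12.02 to 12.31 on the other 4. In dcKO 6 of 6 periderm genes were lower on both arrays, with a median change of -1.17. Krt4 (-1.497), Krt17 (-1.37) and Krt19 (-1.40) passed the adjusted p without being called, against 0.833% of all probes passing. In Sox11 cKO the median was -1.15 and in Sox4 cKO 0.48, with 0 of 6 passing in either. Fewer cells of a type and less RNA per cell cannot be told apart in such samples, and the part of the periderm in the fused S100 changes was not tested.

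Fibroblast genes (Col1a1, Col1a2, Col3a1, Dcn, Lum, Pdgfra) varied between arrays, and 0 of 6 passed in any genotype. In dcKO 5 of 6 were below wild type on both arrays, with a median of -1.91. On the Sox4 cKO arrays their median ratio was -3.50 on replicate 1 and 0.87 on replicate 2, and wild type of replicate 1, the channel with the highest Flg among wild types, also had their highest mean level, 10.57. Skeletal muscle genes had their highest mean wild-type level in the same channel, 7.52 against 5.14 to 6.16 on the other 5 arrays. The part of either cell type in the Flg values was not tested. Epidermal markers (Krt5, Krt14, Krt1, Krt10, Trp63, Cdh1, Dsp) were well above background in each genotype, with a median dcKO change of 0.06 and 0 of 7 passing. Genes of the inner root sheath, where trichohyalin is normally found, had a median dcKO change of -0.02, with Krt25 and Krt27 not well above background in any genotype. Muscle, vessel, red cell and melanocyte lists had 0 genes passing in any genotype.

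Along the chromosome the dcKO changes were uneven. Ahead of Crnn lie genes of the late cornified envelope family, of which Lce1m rose by 4.18 (adjusted p = 0.000674) and was called, the Lce3 genes Lce3b to Lce3e stood between 0.83 and 0.94 and Lce3f at -0.79 with none passing, and Crct1, a cysteine-rich gene of the same cluster, rose by 1.38 (adjusted p = 0.0355) without being called. Tdpoz8 (0.00) and Crnn (-0.037) then separated these from Flg2 (2.90) and Flg (4.66). Beyond Flg the values were 0.68 for Hrnr, 0.86 for Rptn and -0.41 for Tchh. S100a11 (-0.13) and S100a10 (-0.29), small S100 genes that follow Tchhl1, did not pass the test.

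**Figure D4:**
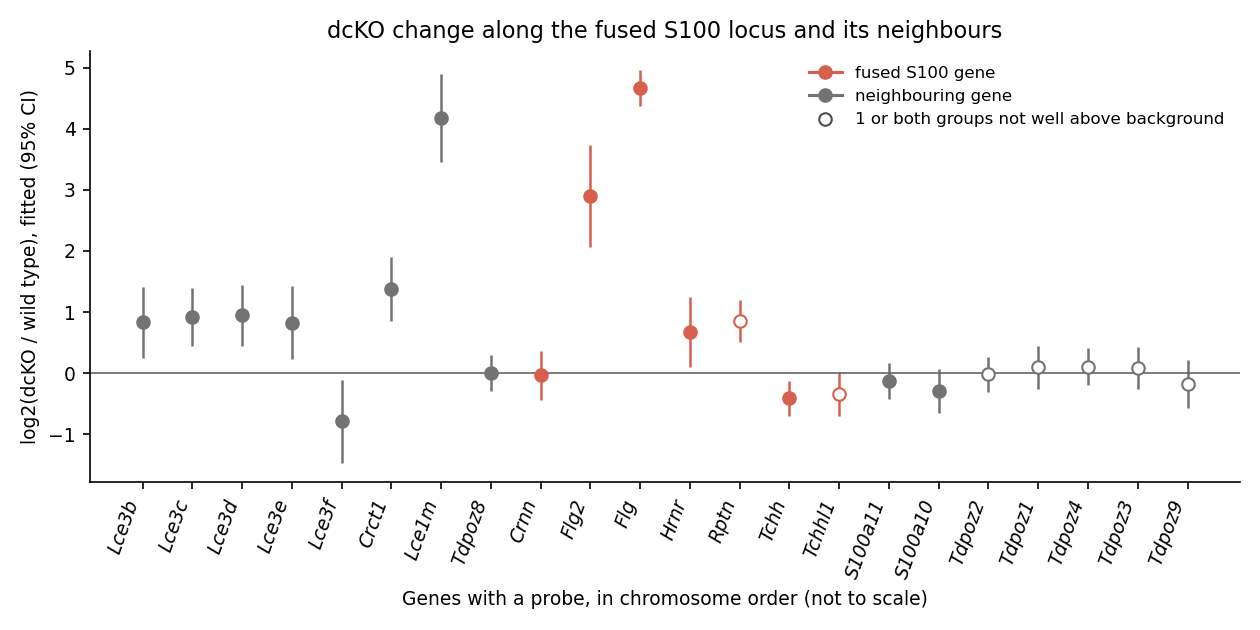
Fitted log2(dcKO/wild type) with 95% CI for the fused S100 genes and their neighbours, in chromosome order and not to scale, with open symbols where 1 or both groups were not well above background. Lce1m (4.18), Flg2 (2.90) and Flg (4.66) were high, with Tdpoz8 (0.00) and Crnn (-0.037) between them.

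Among 21364 other named genes, the 5 whose 6 ratios lay closest to those of Flg were Lce1b, Sdcbp2, Tmem229b, Lce1k and Lce1h. Lce1b, a late cornified envelope gene, was the nearest, with log2 ratios of 4.22 and 5.03 in dcKO, a distance of 1.65 and r = 0.97 over the 6 arrays. On the Sox4 cKO arrays its ratios were -0.52 and 0.45, against 0.86 and 1.27 for Flg. For Flg2 the nearest were 3300005D01Rik, Lce1j, Lce1f, Btc and Hmox1. Btc encodes betacellulin, a ligand of the EGF receptor, and Hmox1 encodes haem oxygenase 1. The unnamed transcript 3300005D01Rik followed Flg2 in the gap between the dcKO arrays, with ratios of 3.55 and 2.41 (distance 0.68, r = 0.98). All points share the same 6 arrays, and the likeness is a description.

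Of 19 genes linked to the processing or breakdown of filaggrin, 5 rose in dcKO by the adjusted p, 0 fell and 2 were called. Over all probes 0.833% passed the adjusted p and 0.207% were called. This list, like those below, was chosen with earlier results of these data known. The ratios of 15 of the 19 genes were above 0 on both dcKO arrays, against 24.6% of all probes. The median change was 0.59 beside 0.00 over all probes. Klk7, a kallikrein protease of the cornified layer, rose by 2.46 (SE 0.13, adjusted p = 8.60e-05) with ratios of 2.34 and 2.58. Hal, the histidase that turns the histidine of broken-down filaggrin into urocanic acid, rose by 1.92 (adjusted p = 0.0027) with ratios of 2.31 and 1.54. Blmh, a hydrolase of the last breakdown steps, rose by 1.15 (adjusted p = 0.0155), and Klk5 stood at 1.15 without passing (adjusted p = 0.102). Prss8, which encodes prostasin, rose by 0.99 (adjusted p = 0.0112) and Ctsl, which encodes cathepsin L, by 0.91 (adjusted p = 0.0216); these were named after their values were seen, because they complete the 5.

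The same list had a median of 0.02 in Sox4 cKO and 0.10 in Sox11 cKO, with 0 of 19 passing in either. Hal was at 1.58 and 1.88 on the Sox11 cKO arrays (fitted 1.73, adjusted p = 0.0951). The peptidylarginine deiminases Padi3 and Padi4, which can citrullinate filaggrin, were not well above background in any genotype. Padi1, the other deiminase of the list, cleared background in 1 knockout channel of Sox4 cKO and in 1 knockout and 1 wild-type channel of dcKO. Its dcKO change was 0.02 (adjusted p = 0.984). Casp14, the caspase that acts on filaggrin, stood at 0.64 in dcKO (adjusted p = 0.206); it and the deiminases were likewise named after their values were seen. Klk7 was, like Flg, not well above background in either channel of the Sox11 cKO arrays.

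**Figure D5:**
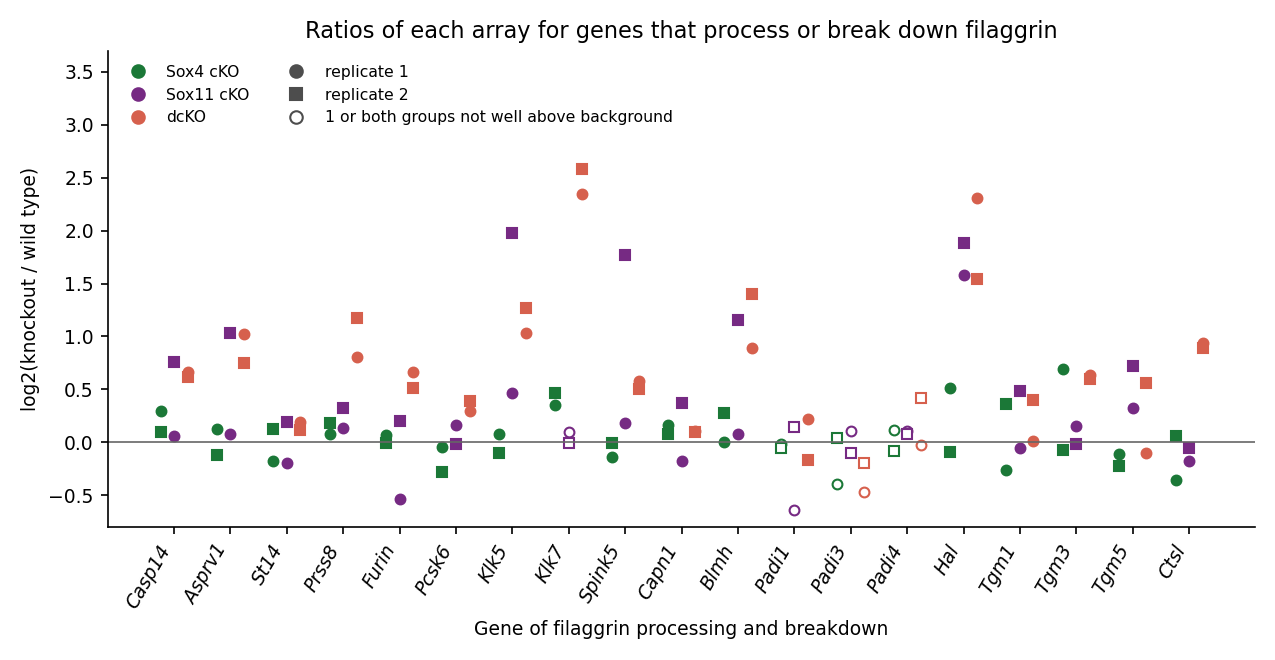
Log2(knockout/wild type) of each array for 19 genes linked to the processing or breakdown of filaggrin, with circles for replicate 1, squares for replicate 2 and open symbols where 1 or both groups were not well above background. Klk7 (2.34 and 2.58) and Hal (2.31 and 1.54) were the called genes in dcKO, and Klk7 was at background on the Sox11 cKO arrays.

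Partners of filaggrin in the granular layer were split. Among 10 keratohyalin and envelope genes, 6 were higher in dcKO, with a median of 0.52. By the adjusted p 1 passed, against 0.833% of all probes, and it was called, against 0.207%. This was Kprp, a keratinocyte proline-rich protein, at 3.25 (adjusted p = 7.64e-05) with ratios of 2.57 and 3.94. Cdsn (corneodesmosin) stood at 1.77, Ivl (involucrin) at 1.25 and Krt1 at 0.64, with adjusted p from 0.135 to 0.487. In Sox11 cKO 9 of the 10 were higher with a median of 0.39 and 0 passing, and Kprp was at background there in both channels. The median was 0.11 on Sox11 cKO replicate 1 and 0.69 on replicate 2, and 7 of the 10 were higher on both.

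Keratins of the inner root sheath, where trichohyalin is crosslinked, had a median of -0.02 over 8 genes in dcKO, and 4 of them were not well above background in either group. Krt72 was the exception, rising by 2.56 (SE 0.14, adjusted p = 9.65e-05) with ratios of 2.57 and 2.55, while Tchh was lower on the same arrays. Krt72 was the 1 of 8 called, against 0.207% of all probes. Krt71 stood at 0.60 and did not pass (adjusted p = 0.148), and Krt28 and Krt26 were not well above background in dcKO. In Sox4 cKO and Sox11 cKO Krt72 was at -0.40 and -0.53, the latter with the knockout at background, and 0 of the 8 passed.

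Of 16 regulators of late keratinocyte differentiation, 7 were higher and 9 lower in dcKO, with a median of -0.07. By the adjusted p 2 passed, against 0.833% of all probes, and 1 was called, against 0.207%. Maf, a factor of late differentiation, rose by 1.68 (SE 0.15, adjusted p = 0.00141) and was called. Prdm1, which encodes BLIMP1 of the granular layer, rose by 0.96 (adjusted p = 0.042). Ovol1 (-0.40) and Ahr (-0.33) were the next in size and did not pass. In Sox4 cKO and Sox11 cKO 0 of the 16 passed, with medians of 0.07 and 0.03.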

How the data were processed

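RNA of embryonic epidermis was hybridised to 6 Agilent 2-colour arrays, 2 per genotype, and groups and replicate numbers came from the sample labels. The authors extracted spot intensities (median brightness and local background, not normalized) with Agilent Feature Extraction 11.0.1.1, and the deposited scanner files also hold that software's log10 ratio of red over green, which that software had already corrected for background and dye. The series table that the authors deposited holds 1 log2 ratio per probe, which per the methods comes from normexp background correction with an offset of 16 and loess in limma (3.5 per the processing notes). Set against values recomputed from the scanner files, it had a slope of 1.00 and r of at least 0.9999 on every array, already turned to knockout over wild type and without the colour adjustment that the methods name.

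All tests used these log2 ratios of 55681 non-control probes (R 4.3.3, limma 3.58.1, lmFit and eBayes, two-sided). The model had 1 coefficient per genotype and 1 dye coefficient over all 6 arrays (2 residual and 6.65 prior degrees of freedom), with Benjamini-Hochberg adjustment over all probes. The dye coefficient stands in for the ComBat step of the methods. It is also the replicate block, since replicate number and dye orientation coincide: deviations of same-numbered arrays from their genotype means correlated at 0.26, 0.31 and 0.33 across probes. Channel levels were normexp-corrected (offset 16), loess-normalized and scaled between arrays (Aquantile). Where a group was well above background on neither array, a fold is a lower bound. It was taken against the dim signal or, if higher, the weakest signal that still cleared background on that array, and it is open to dye bias. The 2 arrays of a genotype are biological replicates per the study's text, and their number limits the precision. The scripts were tested on simulated data. Control spots and, in the recomputed values, outlier-marked spots were left out.

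The gene lists and members were chosen with earlier results of these data known. Each list used the brightest probe of a gene, and by rule the text names 4 genes per list, those with the largest dcKO change (exceptions are marked), with all 7 fused S100 genes and the 5 genes at the smallest Euclidean distance from each called one. Names came from RefSeq (GRCm38.p6), which gave 1 gene name to 28342 probes. The array was designed on an older build, so only names, neighbour order and promoter windows were taken from it. Alternatives covered background correction, the Feature Extraction ratio, the dye term, a filter on dim probes, the genotype's own arrays alone, a trended prior and leaving out each array.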

Additional observations from a re-analysis of the deposited data

Results flagged for a closer look

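The Flg change differed between dcKO and Sox4 cKO when the difference itself was tested. It was larger in dcKO by 3.60 on the log2 scale (limma, adjusted p = 0.000319). Every dcKO array moved in the same direction, with ratios of 4.50 and 4.83. The study had checked the dcKO RNAs for a rise of Flg by RT-qPCR before the arrays were run. The wild-type Flg level spanned 61.2-fold over the 6 arrays, and its part in the difference was not tested. None of the 7 fused S100 genes had a wild-type channel far from the other 5 by Dixon's criterion, for which chance alone gives about 1 case in 20. The criterion looks for 1 outlying channel and can miss 2 that lie low together. The 2 wild-type channels beside Sox11 cKO were the lowest for both Flg and Hrnr.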

How the results depend on the processing

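Flg and Flg2 were called in dcKO under 15 of 16 alternatives, and the exception was the Feature Extraction log ratio, with which 0 fused S100 probes were called in dcKO or in any difference between genotypes. It also called 0 probes over the array in every comparison. For dcKO minus Sox4 cKO the count of called members was 1, and it was 2 (Flg2 added) with an intensity trend in the prior; over the leave-one-out fits it ran from 1 to 2. For dcKO minus Sox11 cKO it was 2 without background subtraction and with the trend, and 1 to 2 over the leave-one-out fits. For dcKO minus the sum it was 1 to 2 over the leave-one-out fits. The count of 2 came without dcKO 2 in all 3 differences and, for Sox11 cKO, also without either Sox4 cKO array. In the differences that involve Sox11 cKO the Flg call rests on ratios at background and is not read as a difference.

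With no replicate block the calls of the 7 genes were the same in all 6 comparisons, 2 in dcKO and 1 in each difference; over all probes 103 against 115 were called in dcKO, 48 against 73 in dcKO minus Sox4 cKO and 24 against 49 in dcKO minus the sum.

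Small values changed sign. Without background subtraction Crnn was at 0.045 in dcKO and Tchh at -0.037 in dcKO minus the sum. With the Feature Extraction log ratio Crnn was at -0.025 in Sox4 cKO, 0.18 in dcKO and 0.21 in dcKO minus Sox4 cKO, Flg2 at -0.18 in Sox11 cKO and Tchh at -0.11 in dcKO minus the sum. Leaving out an array, Crnn ran from -0.32 to 0.39 in Sox4 cKO, -0.73 to 0.075 in Sox11 cKO, -0.087 to 0.014 in dcKO, -0.43 to 0.28 in dcKO minus Sox4 cKO, -0.11 to 0.70 in dcKO minus Sox11 cKO and -0.15 to 0.66 in dcKO minus the sum. Flg2 ran from -0.71 to 0.91 in Sox4 cKO and -0.35 to 0.49 in Sox11 cKO. Hrnr ran from -0.23 to 0.16 in Sox4 cKO, -1.21 to 0.30 in dcKO minus Sox11 cKO and -1.18 to 0.34 in dcKO minus the sum. The causes were not tested.

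Counts over all probes depended on the setting: 0 to 168 in dcKO (115 as reported), 0 to 39 in Sox4 cKO (3), 0 to 40 in Sox11 cKO (0), 0 to 135 in dcKO minus Sox4 cKO (73), 0 to 152 in dcKO minus Sox11 cKO (78) and 0 to 93 in dcKO minus the sum (49). With the mean over all probes of a gene the median of the regulators in dcKO was 0.015 in place of -0.065. Leaving out both Sox11 cKO arrays was added after seeing the data and kept both dcKO calls. A fit that leaves a genotype with 1 array assumes that this array varies like the others. Signal over background limits Tchhl1 throughout, Rptn in wild type and Flg on the Sox11 cKO arrays.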
